A study of Mus musculus with 6 samples.

Results

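The genes described here are 10 genes of the piRNA pathway and of germ granules, Mael, Ddx4, Piwil2, Piwil4, Mov10l1, Tdrd1, Tdrd9, Tdrkh, Asz1 and Pld6, in the nuclear RNA of mouse embryonic stem (ES) cells. They were selected by name, because several of them stood out in earlier results of this same comparison, so that their changes are given as a description and support no test. All 10 were found, in 11 transcript entries, among 19338 genes and 20633 RefSeq transcript entries of the deposited table. For Tdrd1, the only one of them with 2 entries, the entry with the higher expression was kept.

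The 6 sequenced libraries all came from Rybp fl/fl;Yaf2-/- ES cells, a line in which both copies of Yaf2 had been disrupted with CRISPR/Cas9 and Rybp is flanked by loxP sites. Of these libraries, 3 were untreated (UNT) and 3 came from cells given 800 nM 4-hydroxytamoxifen (OHT), which switches on a Cre recombinase, for 96 hr. Both groups therefore lacked Yaf2, both were grown in serum with leukemia-inhibiting factor, and the labels name the replicates of each group as biological. No OHT-treated line without floxed Rybp was analysed here, so that an effect of OHT or Cre and the loss of RYBP cannot be told apart.

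The table holds 1 row for each transcript entry with pooled values of the DESeq2 comparison. The base mean is the normalized count averaged over all 6 libraries, and the log2 fold change (OHT over UNT) is moderated, which means drawn towards 0 where counts are few or variable. Values per library were not analysed here, so that the depth is unknown and the standard error (SE) is the only measure of spread. Coordinates are those of the whole gene in RefSeq (GRCm38.p6), all its transcripts included, and exon numbers are those of the GENCODE vM21 transcript matched to the entry. An entry is called where its adjusted p (DESeq2, Benjamini-Hochberg) is under 0.05. The targeted genes were examined first. Rybp itself had a log2 fold change of 0.92 (SE 0.19, adjusted p = 0.000435) at a base mean of 13983, higher in the libraries labelled OHT, which goes against a loss of its RNA. That value covers the whole entry, and its floxed part was not measured apart from the remainder, nor was RYBP protein measured in the table. Yaf2 had a base mean of 3.24. The Rybp value therefore does not test the label, and the paper reports by western blot that OHT removed RYBP protein from this line. The groups are called the libraries labelled OHT and UNT, or OHT and UNT for short. Each direction below rests on those labels.

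PIWI-interacting RNAs (piRNAs) are small RNAs of the germ line that guide PIWI proteins to transposon transcripts, which are cut in the cytoplasm and silenced by DNA methylation in the nucleus. Their precursors are processed in nuage, a granular material between mitochondria, where Tudor domain proteins bind methylated arginines of PIWI proteins and RNA helicases remodel the RNA. The pathway is best known from spermatogenesis, and most of its genes are silent in somatic tissues. RYBP and YAF2 are alternative subunits of variant Polycomb repressive complex 1 (PRC1). One such complex, PRC1.6, contains MGA and MAX, which bind the E-box, and E2F6, which binds E2F sites, and is known to repress germ-line genes in ES cells.

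Promoter windows of 300 bases, 250 before and 50 after the annotated start, were available in RefSeq (GRCm38.p6) for 9 of the 10 genes, with Piwil2 the exception. The windows below are those of the 4 called members that have one and of Tdrd9, which was not called and holds 2 E-boxes. They are written 5′ to 3′ on the strand of the gene, and capitals mark each E-box (CACGTG, the same on both strands) and each E2F-like match (TCCCGC, or GCGGGA on the other strand). Both motifs were chosen after the windows had been looked at, and a match is a description of the sequence, not a measured binding site.
Mael, chr1:166238695-166238994, minus strand: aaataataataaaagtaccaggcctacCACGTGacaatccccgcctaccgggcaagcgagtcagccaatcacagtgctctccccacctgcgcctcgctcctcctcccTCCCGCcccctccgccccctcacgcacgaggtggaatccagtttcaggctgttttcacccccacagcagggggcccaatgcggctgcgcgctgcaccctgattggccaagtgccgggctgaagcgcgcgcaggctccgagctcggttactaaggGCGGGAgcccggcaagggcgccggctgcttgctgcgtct
Ddx4, chr13:112652261-112652560, minus strand: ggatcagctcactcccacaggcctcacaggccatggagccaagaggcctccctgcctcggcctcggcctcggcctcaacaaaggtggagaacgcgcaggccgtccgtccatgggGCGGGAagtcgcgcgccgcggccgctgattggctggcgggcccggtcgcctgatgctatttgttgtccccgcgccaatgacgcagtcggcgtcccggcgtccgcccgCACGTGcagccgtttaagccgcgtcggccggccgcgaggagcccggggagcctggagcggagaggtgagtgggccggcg
Tdrd1, chr19:56825959-56826258, plus strand: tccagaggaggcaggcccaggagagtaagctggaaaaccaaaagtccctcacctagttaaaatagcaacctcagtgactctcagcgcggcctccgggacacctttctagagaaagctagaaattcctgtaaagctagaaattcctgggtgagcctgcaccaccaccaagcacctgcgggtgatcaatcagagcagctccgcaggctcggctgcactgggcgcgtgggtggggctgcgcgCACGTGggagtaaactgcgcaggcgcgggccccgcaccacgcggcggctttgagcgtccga
Tdrkh, chr3:94412994-94413293, plus strand: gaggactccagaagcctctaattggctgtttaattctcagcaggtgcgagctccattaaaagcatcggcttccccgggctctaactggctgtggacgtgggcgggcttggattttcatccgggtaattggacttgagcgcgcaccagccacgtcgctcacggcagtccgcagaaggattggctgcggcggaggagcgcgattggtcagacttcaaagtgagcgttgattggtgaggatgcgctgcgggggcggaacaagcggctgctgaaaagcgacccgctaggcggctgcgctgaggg
Tdrd9, chr12:111971309-111971608, plus strand: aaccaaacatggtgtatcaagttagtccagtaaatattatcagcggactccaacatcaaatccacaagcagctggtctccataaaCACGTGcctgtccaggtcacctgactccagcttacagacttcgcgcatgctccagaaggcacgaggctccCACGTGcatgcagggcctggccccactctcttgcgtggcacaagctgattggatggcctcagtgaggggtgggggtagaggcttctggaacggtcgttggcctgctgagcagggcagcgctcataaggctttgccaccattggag

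An E-box was present in 6 of the 9 windows, those of Mael, Ddx4, Mov10l1, Tdrd1, Tdrd9 and Pld6. Over all 32851 promoter windows of the same length, 7.15% held one. Among the 14281 windows with at least 10 CpG dinucleotides, the lowest number among the members, the share was 10.9%. The E2F-like motif was found in 2 windows, Mael and Ddx4, against 20.0% of all windows and 40.3% of those with at least 10 CpG. Mael and Ddx4 thus held both motifs, as did 1.99% of all windows and 4.35% of those with at least 10 CpG, and no E-box overlapped an E2F-like match. Neither motif was found in Tdrkh, Piwil4 or Asz1.

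The place of the E-box varied among the genes. Counted from the annotated start, its first base lay at position -11 in Tdrd1, at -29 in Ddx4 and at -33 in Pld6. In Mael it lay at position -223 and in Mov10l1 at -246, near the outer end of each window. Tdrd9 held its 2 copies at positions -165 and -95. The motif occurred among called genes and others: 3 of the 4 called members with a window held an E-box, and 3 of the 5 other members with a window did. Mov10l1, which has no p-value, is among the latter. Numbers this small show neither an association nor its absence. Each window was set against the start of the GENCODE transcript matched to the counted entry, or of the RefSeq gene where none was matched, and the largest gap, 165 bases, was that of Ddx4.

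All 9 windows held more CpG than the median of 7 over all windows, whose quartiles were 3 and 20. The members' numbers ranged from 10 in Tdrd9 to 38 in Ddx4, with a median of 20. The Ddx4 window had a GC content of 72.0%, the Mael window 65.0% and the Tdrkh window 60.0%. The ratio of observed to expected CpG was 0.98 in Ddx4, 0.96 in Tdrkh and 0.78 in Mael, but 0.43 in Tdrd9. DNA methylation of these windows was not measured in the table.

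**Figure D1:**
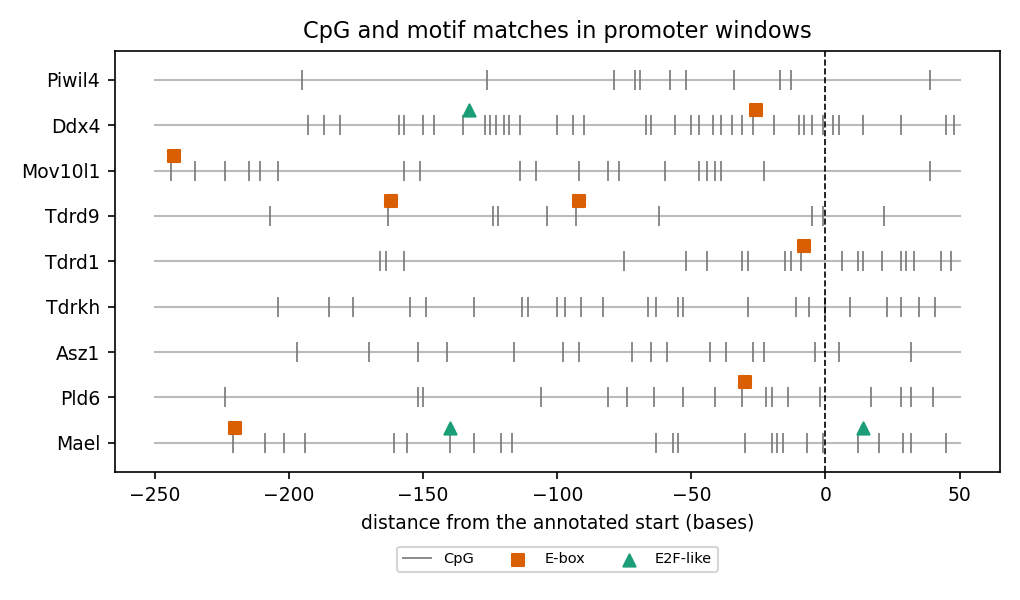
CpG dinucleotides (grey ticks), E-boxes (orange squares) and E2F-like matches (green triangles) in the 300-base promoter windows of 9 genes, with the distance from the annotated start in bases on the x axis and the start as a dashed line. E-boxes stand in 6 windows, and both motifs stand in Mael and Ddx4.

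Of the 10 genes, 5 were higher in the libraries labelled OHT by the deposited adjusted p: Mael, Ddx4, Tdrd1, Tdrkh and Piwil2. None was lower, 4 were tested and not called, and Mov10l1 has no p-value. Over the 16326 entries with an adjusted p, 1.41% were called higher (230 entries) and 0.227% lower (37 entries). Nothing is read from the members' count against these shares, because the same comparison chose them. The median log2 fold change of the 10 genes was 0.71, against 0.01 over all entries (quartiles -0.11 and 0.14). All 10 had a positive log2 fold change, as did 52.8% of all entries. In such bulk RNA, more transcript in each cell and more cells with the transcript cannot be told apart.

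The log2 fold changes of the called genes ranged from 0.93 to 1.63, and those of the other 5 from 0.09 to 0.49, a gap that is no result, since the calls rest on the same values. With the moderation undone it may not hold: Asz1, which was not called, had 1.93, above every called gene but Tdrd1 (1.96). The SE of Asz1 also allows a smaller value. The larger was taken because the base mean of Asz1 lies below 30.2, where the SEs peak. At the threshold, Piwil2 lay nearest on the inside with an adjusted p of 0.00718 (DESeq2), and Tdrd9 lay nearest on the outside with 0.547. Over the whole table, the largest adjusted p among called entries was 0.0487 and the smallest among the others 0.0501, so that no member was close to the limit.

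**Figure D2:**
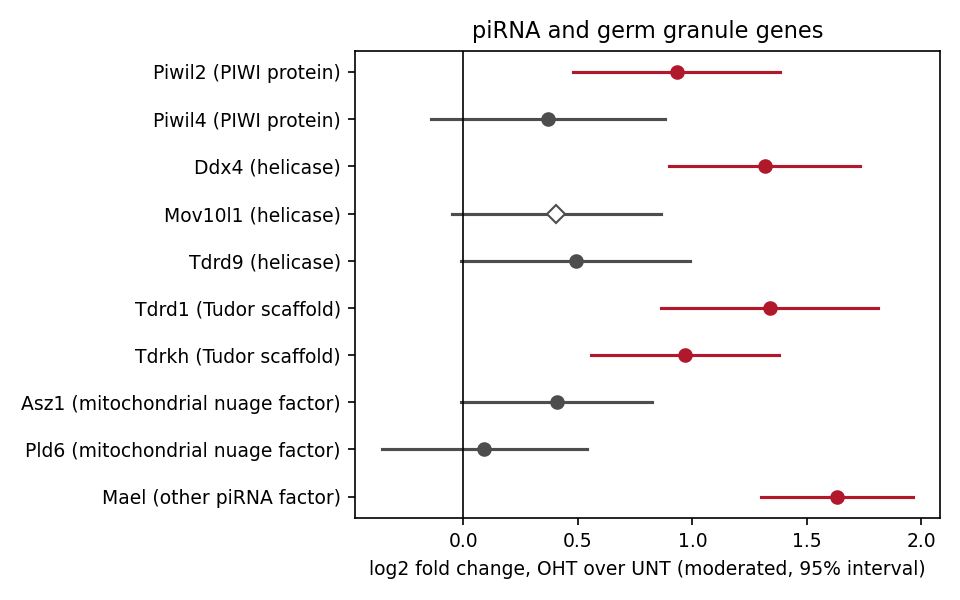
Moderated log2 fold change (x axis, OHT over UNT) of each gene with its 95% interval, ordered by role. Red points are called (adjusted p under 0.05), grey points are not, and the open diamond is Mov10l1, which has no p-value. On this moderated scale the intervals of the 5 called genes lie above 0, and those of the other 5 include it.

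The PIWI proteins are the effectors of the pathway, and Piwil2, which was called, and Piwil4, which was not, are the members that encode them. Piwil2 encodes MILI, a cytoplasmic PIWI protein that binds piRNAs of fetal and adult germ cells and cleaves transposon RNA. Its entry (NM_021308, 23 exons, gene at chr14:70372477-70436898 on the minus strand) had a base mean of 938. The log2 fold change was 0.93 (SE 0.23, 95% interval 0.48 to 1.38), or 1.91-fold, with an adjusted p of 0.00718. With the moderation undone, the estimated level was 550 normalized counts for UNT and 1326 for OHT. Piwil4 encodes MIWI2, the nuclear PIWI protein that directs DNA methylation of transposons in fetal male germ cells. Its entry (NM_177905, 19 exons, gene at chr9:14701776-14740672 on the minus strand) had a base mean of 112 and a log2 fold change of 0.37 (SE 0.26, 95% interval -0.14 to 0.88, adjusted p = 0.778). The interval of Piwil4 includes both 0 and the lower part of that of Piwil2, and the difference between the genes was not tested. An annotated antisense gene, Gm10706, lies over 14417 bases of Piwil4.

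The helicases are Ddx4, Mov10l1 and Tdrd9, of which Ddx4 was called. Ddx4 encodes the mouse homologue of VASA, a DEAD-box helicase that marks germ cells and their nuage. Its entry (NM_001145885, 22 exons, gene at chr13:112598333-112652633 on the minus strand) had a base mean of 1105, the highest of the 10 genes before length is taken into account, and ranked at the 72.5th percentile of base mean in the table. The log2 fold change was 1.32 (SE 0.21, 95% interval 0.90 to 1.73, adjusted p = 6.05e-07), the 16th smallest p-value of the table. The estimated level was 528 normalized counts for UNT and 1682 for OHT, a difference of 3.18-fold once the moderation is undone. Ddx4 was therefore already counted in untreated cells and higher in the libraries labelled OHT.

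Mov10l1 encodes the RNA helicase that binds piRNA precursors and feeds them into processing. Its entry (NM_031260, 27 exons, gene at chr15:88982891-89055152 on the plus strand) had a base mean of 715 and a log2 fold change of 0.41 (SE 0.23, 95% interval -0.05 to 0.86). It is 1 of only 4 entries that have a fold change but no p-value. DESeq2 with default settings, which the authors used, withholds the p-value of a counted entry where the count of a single library is extreme. The log2 fold change and interval of Mov10l1, here and where all 10 genes are summarised, may therefore rest on a single library. Which library that would be cannot be told, since values per library were not analysed. Tdrd9 encodes a helicase with a Tudor domain that works with MIWI2. Its entry (NM_029056, 36 exons, gene at chr12:111971488-112068854 on the plus strand) had a base mean of 83.2 and a log2 fold change of 0.49 (SE 0.26, 95% interval -0.01 to 0.99, adjusted p = 0.547). The interval of Tdrd9 reached from just below 0 to above the values of Piwil2 and Tdrkh.

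Both Tudor scaffold genes were called. Tdrd1 encodes a protein with several Tudor domains that binds MILI and organises nuage. Its kept entry (NM_001002238, 26 exons, gene at chr19:56826171-56870012 on the plus strand) had a base mean of 215 and a log2 fold change of 1.34 (SE 0.24, 95% interval 0.86 to 1.81, adjusted p = 1.67e-05). With the moderation undone, the estimated level was 88.1 normalized counts for UNT and 342 for OHT, or 3.88-fold, the largest such ratio among the called genes. Its log2 value, 1.96 (SE 0.35), lies above the interval just given, which is on the moderated scale. That of Mael was 1.86 (SE 0.19) with the moderation undone, and the difference between these genes was not tested. The other entry of Tdrd1 (NM_001002241, 25 exons) had a log2 fold change of 1.36 (SE 0.24). It is a transcript of the same gene and is not counted as a separate measurement.

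Tdrkh encodes a Tudor protein of the mitochondrial outer membrane that holds PIWI proteins while piRNA ends are trimmed. Its entry (NM_028307, 13 exons, gene at chr3:94413243-94434854 on the plus strand) had a base mean of 217 and a log2 fold change of 0.97 (SE 0.21, 95% interval 0.56 to 1.38, adjusted p = 0.00100). The estimated level was 130 normalized counts for UNT and 303 for OHT. Tdrkh was thus called with neither motif in its window. Oaz3, on the opposite strand, overlaps 2441 bases of Tdrkh and had a base mean of 2.67. An annotated intronic transcript, Gm42463, lies on the same strand over 4886 bases of Tdrkh, and reads from it cannot be told apart from Tdrkh reads.

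The 2 mitochondrial nuage factors were not called. Asz1 encodes GASZ, a scaffold protein that joins nuage to mitochondria. Its entry (NM_023729, 13 exons, gene at chr6:18050964-18109061 on the minus strand) had a base mean of 23.7, the lowest of the group, and a log2 fold change of 0.41 (SE 0.21, 95% interval -0.01 to 0.82, adjusted p = 0.550). At that level the moderation is strong, and with it undone the log2 fold change was 1.93. That value is the larger of those its SE allows and is uncertain at so low a base mean. Pld6 encodes MitoPLD, the homologue of Zucchini, a protein of the mitochondrial surface needed to make piRNAs. Its entry (NR_110894, a non-coding RefSeq record, gene at chr11:59783893-59787657 on the minus strand) had a base mean of 113. Pld6 had the smallest change of the 10 genes, a log2 fold change of 0.09 (SE 0.23, 95% interval -0.36 to 0.54, adjusted p = 0.977). That interval overlaps the interval of Piwil2 (0.48 to 1.38), and the difference between Pld6 and the called genes was not tested.

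Mael encodes Maelstrom, a protein with an HMG box that is found in nuage and is required to silence transposons in male germ cells. Its entry (NM_175296, 12 exons, gene at chr1:166201385-166238744 on the minus strand) had the smallest p-value of the whole table. The base mean was 526, and the log2 fold change was 1.63 (SE 0.17, 95% interval 1.30 to 1.96, adjusted p = 1.28e-17), or 3.10-fold. The estimated level was 228 normalized counts for UNT and 825 for OHT, which is 3.62-fold once the moderation is undone. The Mael window printed above holds 1 E-box and 2 E2F-like matches, the most matches among the 9 windows.

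**Figure D3:**
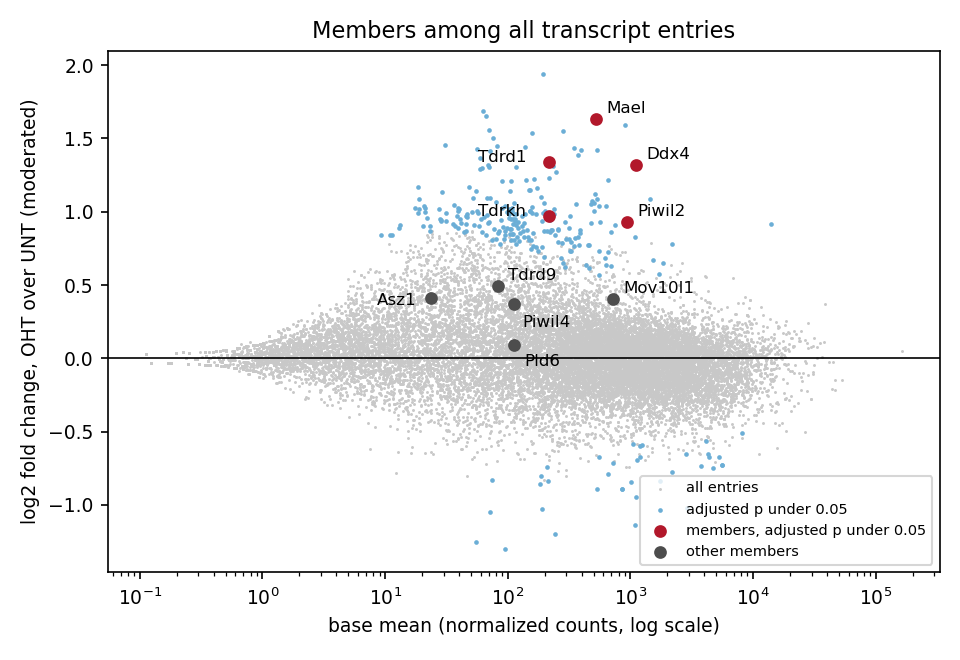
Moderated log2 fold change (y axis) against base mean (x axis, log scale, normalized counts) for all entries (grey), called entries (blue) and the 10 genes (red where called, dark grey where not). Among the called genes Ddx4 has the highest base mean (1105) and Mael the largest change (1.63).

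Levels of the 10 genes can be compared with each other only per length, here as the base mean per kb of the gene's span. By this level Pld6 was first (29.9 normalized counts per kb), in a gene of only 3.77 kb. Ddx4 (20.4), Piwil2 (14.6) and Mael (14.1) followed. Tdrkh (10.0), Mov10l1 (9.89) and Tdrd1 (4.91) were intermediate, and Piwil4 (2.88), Tdrd9 (0.854) and Asz1 (0.408) were lowest. Which neighbours in this order differ beyond their spread was not tested, since the base mean is pooled over both groups. Per kb of exons, which could be computed for 9 of the genes, Ddx4 (367) and Mael (340) came first and Asz1 (13.7) last.

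Among the 9 genes with an adjusted p, each called gene had a higher base mean than each gene not called. Of the 10 genes, 4 lay above the median base mean of all entries, 307, and 6 below it. Ddx4, Piwil2 and Mael, which were called, and Mov10l1, which has no p-value, were those above. Tdrd1 and Tdrkh were called at base means of 215 and 217, and the genes that were tested and not called had base means of at most 113. The SEs of the 5 called genes ran from 0.17 to 0.24 and those of the other 5 from 0.21 to 0.26. The 10 genes lie on 10 different chromosomes, so that no pair of them shares a locus.

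The wider piRNA pathway was described with 21 further genes of piRNA biogenesis and Tudor proteins. All 20 that were in the table were tested, and 1 was called higher and 0 lower, with a median log2 fold change of 0.19. The called gene was Stk31, which encodes a kinase with a Tudor domain (log2 fold change 0.91, SE 0.17, adjusted p = 6.35e-05). Henmt1, the enzyme that methylates the end of piRNAs, had 0.74 (adjusted p = 0.113) and Rnf17, a Tudor protein of germ cells, 0.42 (adjusted p = 0.333). Mov10, the ubiquitous relative of Mov10l1, had the most negative value, -0.48 (adjusted p = 0.285). Over all entries with an adjusted p, 1.41% were called higher and 0.227% lower, so that a single call among 20 genes is given as a description only.

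Among 10 genes of piRNA-directed DNA methylation and piRNA cluster transcription, 7 were in the table and 0 were called. Their median log2 fold change was 0.03. Tex15, a nuclear factor of piRNA-directed silencing, had 0.56 (adjusted p = 0.279), Dnmt3l, the cofactor of de novo methylation, 0.36 (adjusted p = 0.754) and Uhrf1, a factor of maintenance methylation, 0.07. Tcfl5, a transcription factor of spermatocytes, had -0.47 (adjusted p = 0.309). Among 14 RNA-binding genes of germ granules, 11 were tested, 1 was called higher (against 1.41% of all entries) and 0 lower, and the median was 0.11. The called gene was Boll, a relative of Dazl (log2 fold change 1.23, SE 0.22, adjusted p = 1.4e-05). Nxf2 had 0.70 (adjusted p = 0.187), Dazl 0.54 (adjusted p = 0.482) and Elavl2 -0.41 (adjusted p = 0.205).

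Markers of cell state were examined beside these values. The 7 ES cell markers in the table lay between the 83.9th and the 99.3rd percentile of base mean, high levels that fit the label of the cells. None was called, and their log2 fold changes ranged from -0.08 in Esrrb to 0.15 in Pou5f1, with Nanog at 0.11 and Klf4 at 0.06. Of 10 germ cell identity markers, 8 were tested and 1 was called higher, against 1.41% of all entries with an adjusted p. The called gene was Zbtb16 (log2 fold change 0.87, adjusted p = 0.0261), a transcription factor of spermatogonial stem cells. The median of the 8 was -0.11, with Sohlh1 at 0.57 (adjusted p = 0.207), Sohlh2 at 0.51 (adjusted p = 0.539) and Kit at -0.36 (adjusted p = 0.521). Germ cell markers in the table had base means from 5.29 to 4844.5. Kit lay at the 94.15th percentile, within the range of the ES cell markers. Of 9 markers of differentiated lineages, 0 were called. Their base means ranged from 7.42 to 768, and their median log2 fold change was -0.12, with T at 0.83 (adjusted p = 0.0631), Foxa2 at 0.16 and Pax6 at -0.46 (adjusted p = 0.566). The part of any of these markers in the members' changes was not tested, and none of 8 markers of the 2-cell-like state was matched in the table.

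The repressors of the E2F6 and PRC1.6 complex were themselves examined as a list of 12 genes. One of them, E2f6, was called higher (log2 fold change 0.57, SE 0.16, adjusted p = 0.0358). The other 11 were not called, and the median was -0.04. Over all entries with an adjusted p, 1.41% were called higher, so that this single call is given as a description only. Hdac2 had a log2 fold change of 0.26 (adjusted p = 0.821), L3mbtl2 0.08 (adjusted p = 0.977) and Pcgf6, the subunit that defines the complex, -0.22 (adjusted p = 0.778). RNA levels of these genes say nothing of the binding of their proteins, which was not measured in the table.

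**Figure D4:**
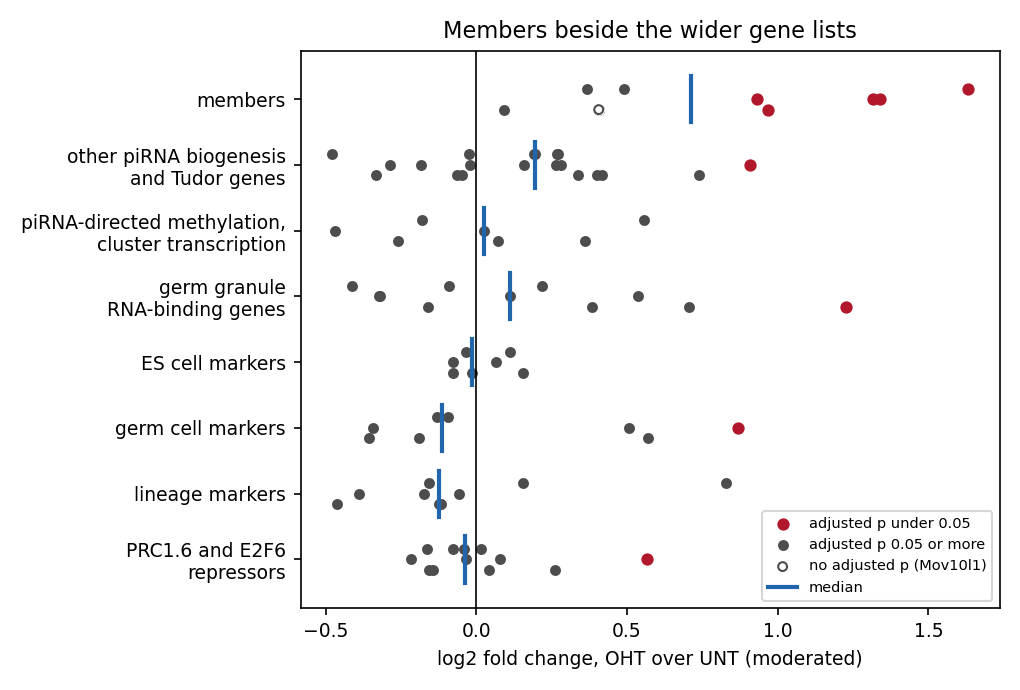
Moderated log2 fold changes (x axis) of the 10 genes and of the genes of 7 further lists, 1 point for each gene, red where called, with the median as a blue bar. The open circle is Mov10l1. The median of the 10 genes, which were selected on this comparison, is 0.71, and the medians of the other lists lie between -0.12 and 0.19.

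Genes within 100 kb of the 10 genes, measured between whole RefSeq genes, were examined to see whether the changes extended to the surroundings. Of 46 such neighbours with an adjusted p, 2 were called higher and 0 lower (4.35%, against 1.41% of all entries), and their median log2 fold change was 0.07. Beside the called members, 1 of 22 neighbours was called higher. This was Vwa2, which begins 4403 bases downstream of the end of Tdrd1 on the same strand (log2 fold change 1.00, SE 0.21, adjusted p = 0.000308). Whether transcription running past the end of Tdrd1 contributes to the reads of Vwa2 was not tested. On the other side of Tdrd1, Ccdc186, 3971 bases upstream, had a log2 fold change of -0.02.

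The tested neighbours of the called genes had log2 fold changes from -0.49 in Ppp3cc, near Piwil2, to 1.00 in Vwa2, and those nearest to the other 4 called genes were not called. Slc38a9, 3555 bases upstream of Ddx4 on the opposite strand, had a log2 fold change of -0.09, and Polr3d, 1849 bases upstream of Piwil2, had 0.24. Mrpl9, 8299 bases downstream of Tdrkh, had 0.24 and Ildr2, 15315 bases upstream of Mael, had 0.67 (SE 0.26, adjusted p = 0.235). Around the members that were not called, Fut4, 7786 bases upstream of Piwil4, was called (log2 fold change 0.82, adjusted p = 0.0370). Mlc1, which lies 197 bases upstream of Mov10l1 on the opposite strand, had 0.60 (SE 0.22, adjusted p = 0.185) at a base mean of only 8.43. Fut4 and Mlc1 were chosen after their values were seen.

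**Figure D5:**
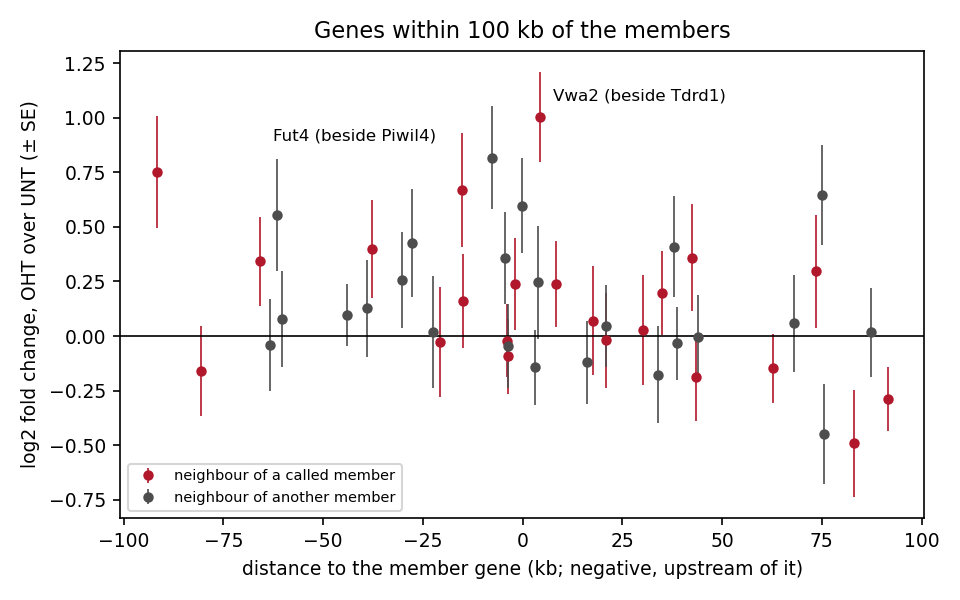
Moderated log2 fold change (y axis, bars ± SE) of the 46 genes within 100 kb of the 10 genes against their distance to the member (x axis, kb, negative where upstream), red beside called members and grey beside the others. The 2 called neighbours, Vwa2 beside Tdrd1 and Fut4 beside Piwil4, are named.

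Overlapping annotation limits the values of some genes. Mael, Ddx4 and Tdrd1 are, with Asz1 and Pld6, the 5 members that no other annotated gene overlaps. Of the other 5, 3 are overlapped on the opposite strand, namely Piwil4, Tdrd9 and Tdrkh. The library kit keeps strand, but whether the counting used it is not given in the sources used here, so that reads from both strands of those 3 genes cannot be told apart.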

How the data were processed

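Nuclear RNA (RiboMinus, NEBNext Ultra Directional kit) was sequenced in paired ends from 3 libraries labelled UNT and 3 labelled OHT. The authors removed rRNA reads with bowtie2, aligned the rest (STAR, then bowtie2, build mm10), obtained counts of read pairs over a filtered refGene set with their own script and ran DESeq2 with default settings. The deposited base mean is a signal, the normalized count averaged over all libraries. DESeq2 as run by the authors moderated the deposited log2 fold change and its SE. The deposited Wald statistic is a score, and the deposited p-values are two-sided and were adjusted by Benjamini-Hochberg after a filter on base mean. These columns are the authors' own comparison and are used here only as a description. The table's header names no direction, and OHT over UNT was taken from the results text of the study.

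The members and gene lists were chosen with earlier results of these data known. Entries were named through RefSeq (GRCm38.p6), and 20560 of 20633 matched a symbol. Genes named are the 10 members, Rybp and Yaf2, in each list the called genes, the 3 largest positive values and the largest negative one, and neighbours within 100 kb of called members. For the last, the nearest tested gene to each called member and any called gene are given singly and the others by their range. Intervals are the log2 fold change with its SE at 95%. Moderation was undone under a normal prior, with levels given only at a base mean of at least 200. The SD of that prior, 0.52, was inferred from the largest SE, 0.26. Below a base mean of 30.2, where the SEs peak, the larger of the values that an SE allows was taken, and above it the smaller. The undoing was tested on simulated data at a base mean of at least 200 and not below it. In that simulation the prior was known and the smaller value was always taken. Neither the inferred SD nor the choice between the values was therefore tested. Python 3.11.15, numpy 2.4.6, pandas 2.3.3 and scipy 1.17.1 were used. No count test was run, since counts per library were not analysed here.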

Additional observations from a re-analysis of the deposited data

How the results depend on the processing

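The number of members called higher was 5 under 7 of the 9 alternatives: adjusted p under 0.01 or 0.1, no filter on expression, a log2 fold change of at least 0.5, a base mean of at least 10 or 100, and the Tdrd1 entry with the lower base mean. It was 4, without Piwil2, under the Benjamini-Yekutieli adjustment. It was 3 (Mael, Ddx4 and Tdrd1) where a log2 fold change of 1 or more was required, since that limit removes the smaller changes. The limits on adjusted p and that of 0.5 on the log2 fold change could not alter the count, given the members' values above. No called gene had a base mean under 100, so the limits on base mean could act only through the adjustment. The median log2 fold change of the 10 genes was 1.24 with the moderation undone, against 0.71 as deposited. The values behind it are least certain at low counts, as for Asz1 (1.93 against 0.41), for which the larger possible value was taken. The median was 0.70 to 0.80 under the other 4 alternatives. No sign could change, since undoing the moderation only enlarges a value. Centring takes off 0.01, less than the smallest change of a member, 0.09. The number of members with an E-box stayed at 6 of 9 when every window listed for a gene was searched, an alternative chosen after seeing the data. Only Piwil4 could have changed it, since the other genes with several windows already held an E-box. No paired analysis was possible because only pooled values per entry were analysed, and for the same reason neither the replicate block nor leaving out each replicate was run. The pooled base mean gives no depth per library, and genes with few counts, such as Asz1, can hold changes that these values do not resolve.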
